A study of Mus musculus with 8 samples.

Results

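Integrins and laminins link heart cells to the basement membrane, and 36 of the 17911 genes in the deposited table encode them. They were chosen by symbol: 18 integrin alpha genes, 8 integrin beta genes and 10 laminin chain genes, leaving out integrin-binding proteins and Itgbl1. Whole hearts of wild-type C57Bl6/J mice were profiled by RNA sequencing in a comparison of 4 female with 4 male animals, 1 heart per library. All 8 mice carry the same genotype and batch label and no treatment is named. They are called adult, and the ages stated are 4 weeks (design) and 4 to 6 weeks (extraction). The molecule is given as total RNA, although the kit named is one for small RNA. RNA came from single whole hearts, so cardiomyocytes, vessels, fibroblasts, nerves, leukocytes and blood all contribute. Each heart is a separate sample per the labels, and the female and male replicates share no stated pairing.

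Laminins are trimers of 1 alpha, 1 beta and 1 gamma chain that polymerise into the basement membrane around muscle fibres, capillaries and nerves. Integrins are transmembrane receptors of 1 alpha and 1 beta chain that bind laminin, collagen, fibronectin or cell surface proteins outside the cell and talin, kindlin and the actin skeleton inside it. In cardiomyocytes they sit at costameres, the sites where the contractile apparatus is anchored to the membrane and the matrix beyond it, and in human LAMA2 deficiency the loss of a laminin alpha chain causes muscular dystrophy.

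Reads assigned to genes numbered 51.7 M to 66.3 M in female and 55.0 M to 75.7 M in male hearts, below the more than 80 M sequenced reads given in the labels. Even the members with the fewest reads (Itgae, Itgad and Itga2) had 13 or more reads in every heart. The labelled tissue was checked with 14 lists of cell type markers: the summed level of the 8 cardiomyocyte markers was the highest of the 14 in every heart. In the following, a level is the deposited normalized read count. Levels of single genes are set side by side only per kb of merged exons or of coding length. Sums over marker lists and over the alpha partners of Itgb2 add levels that were not divided by length.

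The 8 hearts used the same small set of chains at a high level. Itgb1, the beta chain shared by most laminin, collagen and fibronectin receptors, was the highest member. Its level per kb was 6998 in female and 7173 in male hearts. Lamb2, a laminin beta chain, was second with 5353 in female and 4797 in male hearts. Itgb5, a beta chain that pairs with Itgav, had 2254 in female and 2250.4 in male hearts, the laminin gamma chain Lamc1 had 1902 in female and 2009.6 in male hearts, and the laminin receptor chain Itga7 had 1701 in female and 1584 in male hearts. These 5 genes also held the first 5 places per kb of coding length, in another order. Itga2, a collagen receptor chain, was lowest with 4.86 in female and 4.49 in male hearts.

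**Figure D1:**
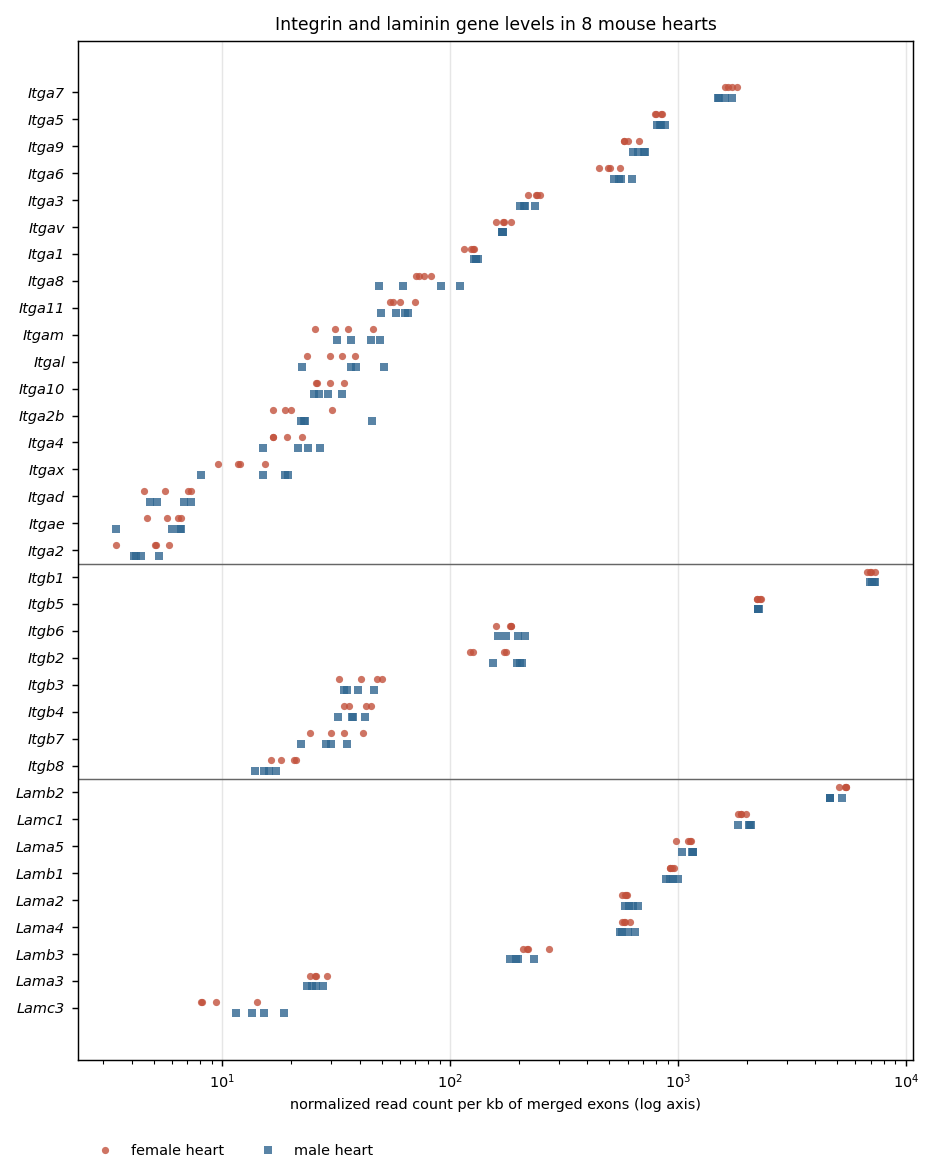
Level of 35 of the 36 genes in each heart, as normalized read count per kb of merged exons on a log axis; circles are female hearts and squares male hearts, and lines part the integrin alpha, integrin beta and laminin genes. Itgb1, Lamb2 and Itgb5 are highest, Itgad, Itgae and Itga2 lie under 10, and for most genes the sexes share one range.

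No member passed the test between the sexes in limma (0 of 36 at an adjusted p under 0.05, against 1.16% of all genes, 0.475% higher and 0.687% lower in females), and the differences were small. The largest in size was -0.58 on the log2 scale (Lamc3), and 29 of the 36 were smaller than 0.2 in either direction. Signs were split evenly, 18 positive and 18 negative (49.1% of all genes were negative), and the median was -0.0055, against 0.0023 for all genes. At an unadjusted p under 0.05 there were 9 members, 3 higher in females (Lamb2, Itgb8 and Itga3; 7.84% of all genes) and 6 lower (Itga9, Lamc3, Itga6, Itgb2, Lama2 and Itga1; 8.16% of all genes), in all 16.0% of the genes tested. With edgeR's quasi-likelihood test 0 members were called under TMM factors (0.927% of all genes) or RLE factors (0.916% of all genes). In each, 10 members had an unadjusted p under 0.05 (2952 of all 17911 genes). With limma-voom 0 were called (1.16% of all genes) and 9 had an unadjusted p under 0.05 (2975 of all 17911 genes). DESeq2 called Lamb2 (1 of the 33 members given an adjusted p, against 4.90% of all genes). A fit with total reads as a covariate called Itga2b (1 of 36, against 0.871% of all genes), and the fit without male replicate 5 called Lamb2 (1 of 36, against 2.88% of all genes). Fits with a block for title numbers or library code numbers called 0 (0.810% and 0.145% of all genes). These block fits rest on the 3 pairs of hearts that share a number. Hearts of the sexes did not overlap for 2 of 36 members, Itga1 among them, against 9.35% of all genes in either direction, 4.52% higher and 4.82% lower in females. The precision differed among members: the 95% interval of Itga8 ran from -0.56 to 0.62, while that of Itgb5 ran from -0.058 to 0.062.

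**Figure D2:**
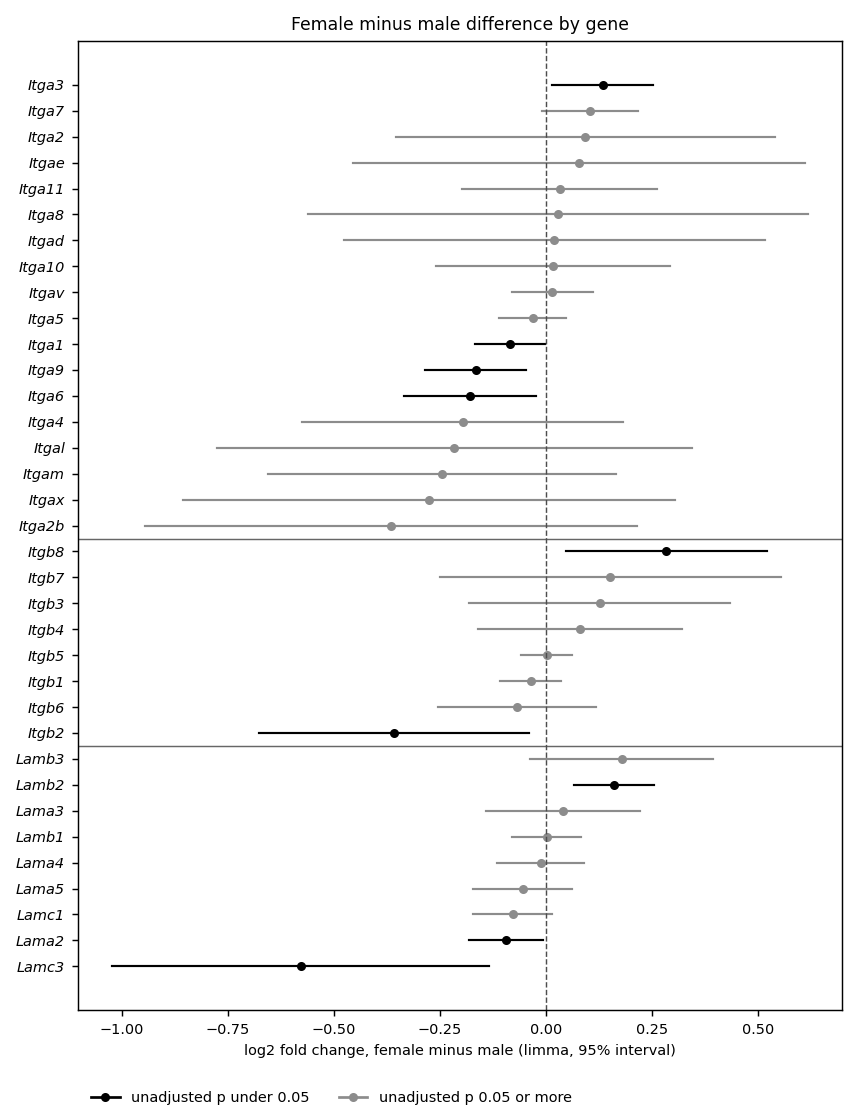
Log2 fold change of 35 of the 36 genes, female minus male, with its 95% interval from limma; black marks an unadjusted p under 0.05 and lines part the integrin alpha, integrin beta and laminin genes. The estimates lie between -0.58 and 0.28, and none had an adjusted p under 0.05.

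Among laminin beta chains Lamb2 was the most abundant in both sexes and the member with the smallest p. It is the beta chain of vessel walls and of the synaptic part of the muscle basement membrane. Lamb2 (chromosome 9, 108479736 to 108490530, plus strand, mm10) had 30926, 33006, 33182 and 33119.7 in female replicates 1 to 4, against 28190.5, 28325, 28293 and 31885 in male replicates 1, 3, 4 and 5. Male replicates 1, 3 and 4 were almost level and below all 4 female hearts, while male replicate 5 lay within the female range. The mean was 32558 ± 1090.5 in female and 29173 ± 1809 in male hearts (SD, n = 4 each; log2 fold change 0.16, SE 0.043, limma adjusted p = 0.102), a difference short of the threshold in limma. The authors' deposited table, nearly reproduced by DESeq2 on the same reads, gives an adjusted p of 0.0283 for Lamb2. Without male replicate 5 the limma adjusted p was 0.00969 (log2 fold change 0.20). Over 20 alternatives the Lamb2 adjusted p ran from 0.00969 to 0.433 in limma, edgeR or DESeq2. The summed level of 8 fibroblast markers did not overlap between the sexes, at 177367 to 192876 in female and 168345 to 176593 in male hearts. Of these markers 6 were positive and 2 negative in fold change, with a median log2 fold change of 0.028, and 1 was called. The part of this sum in the Lamb2 values was not tested. In bulk RNA such as this, more cells of a type and more RNA per cell cannot be told apart.

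Lamb1, the more widely used beta chain and the one made early in development, showed almost no difference. It had 9519, 9178, 9139.5 and 9319 in the female hearts, against 9097, 9874, 9411 and 8759.5 in the male hearts (log2 fold change 0.0018, SE 0.037, limma adjusted p = 0.989). The ranges overlapped throughout, and the female hearts were the tighter group. Lamb3, known from the anchoring laminin of skin, was present at 216 per kb over all hearts. Its level was 1376, 1439, 1450.1 and 1797 in the female hearts, against 1311, 1213, 1279 and 1546 in the male hearts (log2 fold change 0.18, SE 0.096, limma adjusted p = 0.405). Female replicate 4 was highest, and the other 3 female hearts lay within the male range. Of the 3 beta chains summed per kb, Lamb2 made up 82.1% ± 0.661 in female and 80.8% ± 1.15 in male hearts (SD, n = 4 each). Lamb1 made up 14.4% ± 0.649 in female and 15.8% ± 1.37 in male hearts. Hsd11b1 and G0s2 lie inside the span of Lamb3 on the opposite strand without sharing exons with it.

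The promoters of Lamb2, Lamb1 and Itgb1 are shown because Lamb2 and Itgb1 are the highest members and Lamb1 is the second laminin beta chain. They differ in their content of CG pairs. The windows of Lamb3, with 2 and 5 CG pairs, are not shown. Each window of 300 bases runs from 250 bases before to 50 after a RefSeq transcript start (GRCm38.p6), and capitals mark each CG.
Lamb2, chr9:108479612-108479911, plus strand: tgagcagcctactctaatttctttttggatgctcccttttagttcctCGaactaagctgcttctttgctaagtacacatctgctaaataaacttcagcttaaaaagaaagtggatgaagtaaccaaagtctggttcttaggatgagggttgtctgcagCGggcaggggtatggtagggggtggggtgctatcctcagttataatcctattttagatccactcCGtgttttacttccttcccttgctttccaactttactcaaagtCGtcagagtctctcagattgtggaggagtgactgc
Lamb1, chr12:31265043-31265342, plus strand: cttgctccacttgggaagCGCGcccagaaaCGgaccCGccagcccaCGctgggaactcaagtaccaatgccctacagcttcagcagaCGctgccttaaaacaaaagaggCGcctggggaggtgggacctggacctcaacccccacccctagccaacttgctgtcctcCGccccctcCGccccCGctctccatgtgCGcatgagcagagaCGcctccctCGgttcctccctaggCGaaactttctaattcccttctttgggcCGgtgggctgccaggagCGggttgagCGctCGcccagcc
Itgb1, chr8:128685404-128685703, plus strand: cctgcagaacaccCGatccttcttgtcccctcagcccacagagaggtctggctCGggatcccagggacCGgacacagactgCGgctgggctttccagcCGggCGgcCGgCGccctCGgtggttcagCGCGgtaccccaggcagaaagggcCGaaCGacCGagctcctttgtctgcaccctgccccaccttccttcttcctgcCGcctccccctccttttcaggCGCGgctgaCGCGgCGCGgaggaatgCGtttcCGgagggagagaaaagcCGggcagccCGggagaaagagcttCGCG
The Lamb2 window held 4 CG pairs, that of Lamb1 held 18 and that of Itgb1 held 27, against a median of 7 over all 32851 windows. Thus the 2 highest members per kb, Itgb1 and Lamb2, had windows above and below that median. The comparison used windows of 23 of the 36 members (26 windows, none of them of Lama3). Their median was 11 CG pairs, with a range from 1 (Lama2) to 27 (Itgb1). Some of these windows, those of Lama2 and Lamb3 among them, lie at a start inside the annotated gene and not at its outer start. The GC box letters GGGCGG, searched on both strands, were in 12 of these 26 windows, those of Lamb1 and Itgb1 among them and that of Lamb2 not, and in 35.7% of all windows. The letters TATAAA, also on both strands, were in 0 of the 26 windows and in 13.6% of all windows, and the letters GAGGAA on both strands in 14 of the 26 and in 28.3% of all windows. These 3 were the motifs searched, and matches are descriptions of letters in a window.

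Among laminin alpha chains Lama5, Lama2 and Lama4 shared nearly all of the level and Lama3 was at a trace. Lama2, the alpha chain of the muscle fibre basement membrane, had 9519.9, 9264, 9615 and 9764 in female replicates 1 to 4, against 9537, 9992, 10312 and 10928 in male replicates 1, 3, 4 and 5 (log2 fold change -0.094, SE 0.040, limma adjusted p = 0.277). Female replicates 1 and 2 were below all male hearts, and female replicates 3 and 4 lay within the male range. Lama4, the alpha chain of capillary endothelium, had 7461, 6977, 7029 and 6875 in the female hearts, against 6699.9, 7791, 7312 and 6829 in the male hearts (log2 fold change -0.013, SE 0.047, limma adjusted p = 0.928). Its highest and lowest hearts were both male. Lama5, also found in endothelium and in epithelia, had 11187, 12565, 12912 and 12945 in the female hearts, against 11808, 13308, 13154 and 13247 in the male hearts (log2 fold change -0.055, SE 0.053, limma adjusted p = 0.67). Male replicate 1 and female replicate 1 were the lowest and the other 6 hearts lay close together.

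Per kb of merged exons Lama5 made up 47.6% ± 2.13 in female and 47.6% ± 0.404 in male hearts of the alpha chains (SD, n = 4 each), and Lama2 and Lama4 were level at 25.5% ± 0.602 in female and 26.3% ± 1.08 in male hearts and at 25.7% ± 1.55 in female and 24.99% ± 1.24 in male hearts. That order depends on the length used: per kb of coding length Lama4 was the highest, at 37.6% ± 1.71 in female and 36.6% ± 1.65 in male hearts, and Lama5 made up 32.1% ± 1.87 in female and 32.2% ± 0.391 in male hearts. Lama3, known from the anchoring laminin of skin, made up 1.14% ± 0.105 in female and 1.07% ± 0.125 in male hearts per kb of merged exons.

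Lamc1 was the highest of the gamma chains in both sexes. It is the gamma chain of most laminins. Lamc1 had 15679, 15605, 15128 and 16506 in the female hearts, against 15235, 17138, 16869.6 and 17252 in the male hearts (log2 fold change -0.079, SE 0.043, limma adjusted p = 0.401). Male replicate 1 lay among the female hearts and the other 3 male hearts lay above all of them. Lamc3, a rare gamma chain, had 86.3, 49.5, 49.0 and 57.2 in the female hearts, against 82.4, 114, 92.9 and 69.99 in the male hearts (log2 fold change -0.58, SE 0.20, limma adjusted p = 0.195). Female replicates 2, 3 and 4 were the lowest of all and female replicate 1 lay within the male range. It had the largest fold change of all members and as few as 46 reads in a heart. Lamc1 lies on chromosome 1, 153218922 to 153332786, minus strand.

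**Figure D3:**
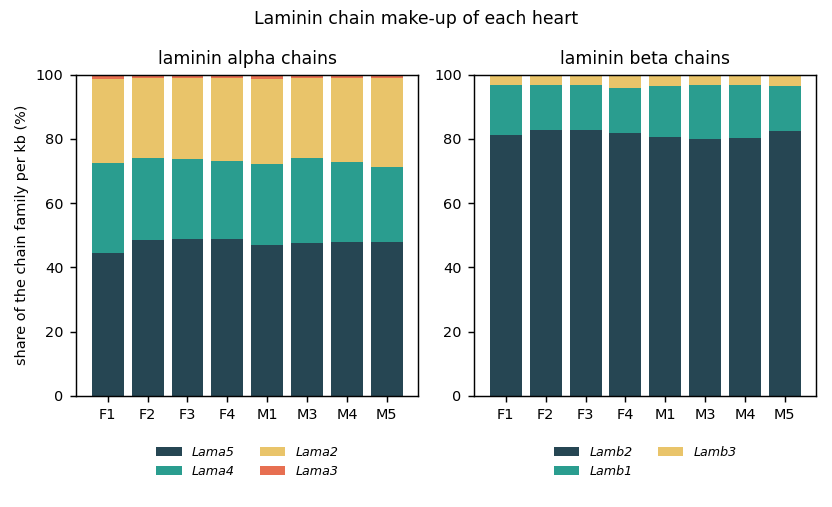
Share of each chain within the laminin alpha and beta families in each heart, from normalized read counts per kb of merged exons; F and M mark female and male hearts with their replicate numbers. Lama5 and Lamb2 are the highest chain of their families in each of the 8 hearts, with Lamb2 at 79.8% or more.

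Itga7 led the integrin alpha chains. Itga7, the main laminin receptor chain of differentiated muscle, lies on chromosome 10, 128933818 to 128958282, plus strand. Its level was 13938, 13382, 14711 and 13015 in the female hearts, against 12121, 12178, 12950.5 and 14014 in the male hearts (log2 fold change 0.10, SE 0.051, limma adjusted p = 0.35). Male replicates 1, 3 and 4 were below all female hearts, and male replicate 5 was higher than 3 of the 4 female hearts. It made up 38.1% ± 2.34 in female and 35.1% ± 1.95 in male hearts of all alpha chains per kb (SD, n = 4 each).

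Itga6, the laminin receptor chain of endothelium and epithelia, went the other way in the estimate. It had 4433, 4548, 4071 and 5012 in the female hearts, against 4729, 5693, 5045 and 4989.8 in the male hearts (log2 fold change -0.18, SE 0.069, limma adjusted p = 0.25). Female replicate 3 was the lowest and male replicate 3 the highest, and female replicate 4 lay among the male hearts. Itga3, a receptor chain for laminins with Lama5 and Lama3, had 1359, 1408, 1251 and 1369 in the female hearts, against 1198, 1156, 1214 and 1347 in the male hearts (log2 fold change 0.13, SE 0.055, limma adjusted p = 0.262). Male replicate 5 lay among the female hearts and the other 3 male hearts lay below all of them. Itgb4, which pairs with Itga6 alone, was low at 39.4 per kb in female and 37.2 per kb in male hearts (log2 fold change 0.080).

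Itgb1 itself, the common partner of these chains, was steady over the hearts. It had 28642, 28304, 27421 and 29876 in female replicates 1 to 4, against 28519.9, 29579, 28992 and 29996 in male replicates 1, 3, 4 and 5 (log2 fold change -0.036, SE 0.033, limma adjusted p = 0.654). The sexes overlapped, and the lowest and highest hearts differed by a small part of the level. Among the beta chains per kb, Itgb1 made up 72.0% ± 0.514 in female and 72.3% ± 0.832 in male hearts (SD, n = 4 each) and Itgb5 made up 23.2% ± 0.452 in female and 22.7% ± 0.337 in male hearts.

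Receptors for fibronectin and other ligands with the RGD motif were led by Itga5, whose chain with Itgb1 is the main fibronectin receptor. Itga5 had 4205, 3903, 3955 and 4151 in the female hearts, against 3995, 4314, 4157 and 4109 in the male hearts (log2 fold change -0.032, SE 0.036, limma adjusted p = 0.726). The ranges overlapped and spanned about the same width in each sex. Itgav, the chain that pairs with Itgb1, Itgb3, Itgb5, Itgb6 or Itgb8 and can release active TGF-beta, was at 171 per kb over all hearts, with a log2 fold change of 0.015. Itgb5 had 7877, 8105, 7871 and 8179 in the female hearts, against 7986, 7975, 8072 and 7949.8 in the male hearts (log2 fold change 0.0020, SE 0.028, limma adjusted p = 0.981). It varied least of all members, with a within-sex coefficient of variation of 1.47%, where counting alone gives 1.11%.

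Itgb6, Itgb3 and Itgb8, which also pair with Itgav, were far lower per kb than Itgb5. Itgb6, an epithelial chain, had 1131, 1301, 1309.6 and 1317 in the female hearts, against 1405, 1251, 1515 and 1152 in the male hearts (log2 fold change -0.069, SE 0.084, limma adjusted p = 0.754). Female replicate 1 was the lowest of all 8 hearts and the other 3 female hearts lay within the male range. Itgb3, a chain of platelets and vessel cells, was at 252 ± 46.6 in female and 229 ± 32.3 in male hearts (SD, n = 4 each; log2 fold change 0.13). Itgb8, which binds latent TGF-beta, had 234, 227, 181 and 199.8 in the female hearts, against 189, 153, 169 and 177 in the male hearts (log2 fold change 0.28, SE 0.11, limma adjusted p = 0.232). Male replicate 1 lay within the female range and female replicate 3 within the male range.

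Itga8 and Itga9 are chains with restricted partners. Itga9, which pairs with Itgb1 and binds tenascin and Svep1, is known from lymphatic vessels and smooth muscle. It had 4469, 4614, 4437 and 5199 in female replicates 1 to 4, against 5146, 5501, 4884 and 5451 in male replicates 1, 3, 4 and 5 (log2 fold change -0.17, SE 0.055, limma adjusted p = 0.167). The 3 lowest hearts were female, while female replicate 4 was higher than male replicates 1 and 4. Itga8, a receptor chain of smooth muscle and mesenchyme that binds nephronectin, had 563, 536, 523 and 608 in the female hearts, against 458, 811, 358 and 669 in the male hearts (log2 fold change 0.028, SE 0.25, limma adjusted p = 0.972). The male hearts held both the lowest and the highest values and the female hearts lay between them, so its within-sex coefficient of variation was 26.0%, where counting alone gives 4.20%. The summed level of 8 smooth muscle and pericyte markers (8 positive in fold change, 0 called in limma) was 80007, 86567, 82706 and 87540.4 in the female hearts, against 80306, 86464, 75654 and 83841 in the male hearts, in the same order as Itga8 over the male hearts and in another over the female hearts. Its part in the spread of Itga8 was not tested.

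Of the 4 collagen receptor chains Itga1 was the highest and 3 were low. Itga1, the chain of smooth muscle, capillaries and fibroblasts that binds collagen IV, had 2362, 2333, 2140.1 and 2284 in female replicates 1 to 4, against 2414, 2458, 2375 and 2418 in male replicates 1, 3, 4 and 5 (log2 fold change -0.085, SE 0.037, limma adjusted p = 0.291). All 4 female hearts were below all 4 male hearts, with a narrow gap between female replicate 1 and male replicate 4. Itga11, the fibroblast chain that binds fibrillar collagen, was at 60.3 per kb in female and 59.1 per kb in male hearts, with a log2 fold change of 0.032. Itga10, known from cartilage, was at 28.7 per kb over all hearts and Itga2, known from epithelia and platelets, at 4.67. Itga1 and Itga2 are neighbours on the minus strand of chromosome 13. The annotated exons of Itga1 span 18599 bases, so its level per kb of merged exons is low beside its level per kb of coding length, which ranked 13 of 36 in place of 18.

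**Figure D4:**
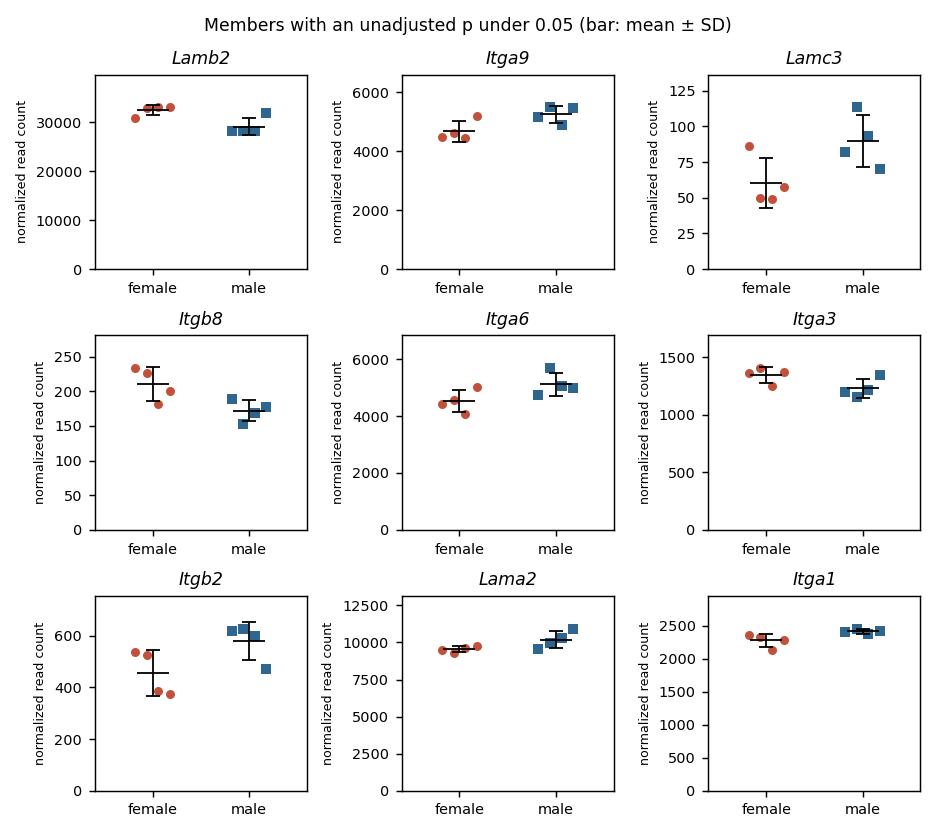
Normalized read counts of the 9 genes with an unadjusted p under 0.05, ordered by p, with 1 point per heart, female hearts left and male hearts right; bars give mean ± SD (n = 4 each) and axes start at 0. Lamb2, Itgb8 and Itga3 have higher female means and the other 6 lower female means, and only Itga1 has no overlap between the sexes.

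Leukocyte integrins other than Itgb2, which was at 170 per kb over all hearts, were low. All of them varied from heart to heart more than the abundant chains. Itgb2, the beta chain found on leukocytes, had 536, 526, 385 and 374 in female replicates 1 to 4, against 619, 627, 600.0 and 472 in male replicates 1, 3, 4 and 5 (log2 fold change -0.36, SE 0.14, limma adjusted p = 0.262). Female replicates 3 and 4 were lowest, and male replicate 5 was the lowest of the males and below female replicates 1 and 2. Its alpha partners Itgal (lymphocytes), Itgam and Itgax (myeloid cells) and Itgad had log2 fold changes of -0.22, -0.25, -0.28 and 0.020. Without male replicate 5 those of Itgal, Itgam and Itgax were -0.44, -0.36 and -0.55, and with total reads as a covariate they were 0.036, -0.037 and 0.0075. Together these 4 alpha genes summed to 532, 526, 389 and 412 in the female hearts, against 603, 678, 549.8 and 367 in the male hearts. Those sums overlapped, with male replicate 5 the lowest of all 8 hearts and female replicates 3 and 4 next.

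Itga4, which pairs with Itgb1 or Itgb7 and binds Vcam1, had a log2 fold change of -0.20, and Itgb7 and Itgae, chains of mucosal lymphocytes, had 0.15 and 0.078. The summed level of 8 macrophage markers, all 8 of them negative in fold change and 3 of them called, was 22659.6, 22064, 19492 and 20417 in the female hearts, against 27702, 30011, 30078 and 23474 in the male hearts. It did not overlap between the sexes, and its part in the Itgb2 values was not tested. The 7 lymphocyte markers in the table summed to 215 to 415 in female and 183 to 438 in male hearts, with full overlap. The libraries with the fewest reads were female replicate 4, male replicate 5 and female replicate 3, at 51.7 M, 55.0 M and 61.6 M.

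Itga2b, the platelet fibrinogen receptor chain, was high in a single male heart. It had 103, 109, 90.5 and 166 in the female hearts, against 121, 125, 125 and 246 in the male hearts (log2 fold change -0.37, SE 0.26, limma adjusted p = 0.547). Male replicate 5 was far above every other heart, and female replicate 4 was the highest female heart. The summed level of 6 platelet and megakaryocyte markers (6 negative in fold change, 0 called in limma) was 864, 804, 823 and 1000.01 in the female hearts, against 863, 887, 1065 and 1298 in the male hearts, highest in the same heart of each sex, and its part in the Itga2b values was not tested.

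Itgal, Itgam, Itgax and Itgad lie in 1 cluster on the plus strand of chromosome 7, from 127296260 to 128223816. Some exons are shared with other annotated genes: 68.7% of the Itgam exon bases with the same-strand Gm49368, 33.5% of those of Itga10 with Gm42957, and 8.04% of those of Itga4 with the opposite-strand Cerkl. Itgad shares a slightly larger part than Itga4, with an opposite-strand processed transcript. It shares smaller parts with the same-strand Gm17831 and the opposite-strand Cox6a2, and some other members also share smaller parts than Itga4. Whether strand was used in counting is not known here, so reads in these stretches are of uncertain source.

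**Figure D5:**
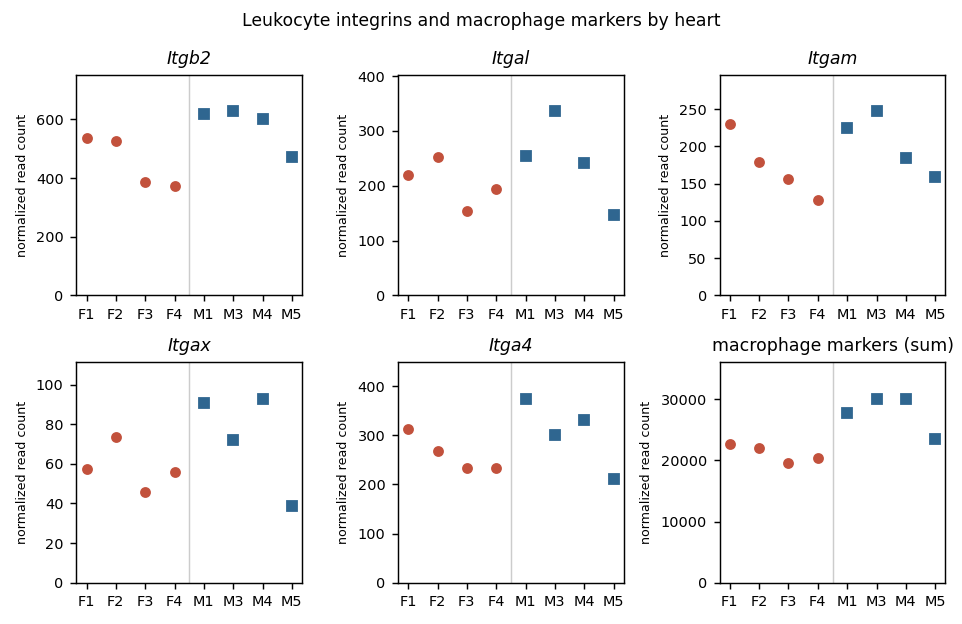
Normalized read counts of 5 leukocyte integrin genes and the summed level of 8 macrophage markers in each heart; circles are female (F) and squares male (M) hearts, labelled with replicate numbers, and axes start at 0. Itgb2 is lowest in female replicates 3 and 4, male replicate 5 is the lowest male heart in each panel, and the macrophage sums of the sexes do not overlap.

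Ratios of chains within a heart do not depend on its size factor, and 6 were compared between the sexes. None passed at an adjusted p under 0.05, over the 6 ratios. With 4 hearts each the smallest possible two-sided exact permutation p is 0.0286, which for a lone ratio adjusts to 0.171, so no single ratio could have passed alone. Averages are geometric means. Per kb of merged exons the ratio of Itga7 to Itga6, the muscle against the endothelial and epithelial laminin receptor chain, averaged 3.40 in female and 2.80 in male hearts (log2 difference 0.28, SE 0.13, exact permutation p = 0.0571, adjusted p = 0.286). The ratio of Lamb2 to Lamb1 averaged 5.71 in female and 5.12 in male hearts (log2 difference 0.16, SE 0.083, exact permutation p = 0.143, adjusted p = 0.286). On the log2 scale it was 2.41, 2.55, 2.57 and 2.53 in the female hearts, against 2.34, 2.23, 2.29 and 2.57 in the male hearts, where male replicate 5 was the highest of all 8. The ratio of Itga7 to Itga5, the muscle laminin receptor against the fibronectin receptor, averaged 2.07 in female and 1.88 in male hearts (log2 difference 0.14, SE 0.076, exact permutation p = 0.114, adjusted p = 0.286). The ratio of Itgb1 to Itgb5 averaged 3.10 in female and 3.19 in male hearts (log2 difference -0.038, SE 0.026, exact permutation p = 0.2, adjusted p = 0.3).

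Between laminin alpha chains, Lama2 to Lama4 averaged 0.995 in female and 1.05 in male hearts (log2 difference -0.081, SE 0.073, exact permutation p = 0.343, adjusted p = 0.411), and Lama5 to Lama4 averaged 1.85 in female and 1.91 in male hearts (log2 difference -0.042, SE 0.085, exact permutation p = 0.743, adjusted p = 0.743). Without female replicate 1 the difference in Lama5 to Lama4 turned to 0.031. Per kb of coding length, which leaves the differences between the sexes as they are, Lama5 to Lama4 averaged 0.854 in female and 0.879 in male hearts, below 1 in place of above it. Lamb2 to Lamb1 averaged 3.49 in female and 3.13 in male hearts on that scale.

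The spread between hearts of one sex followed the level of the gene. The median within-sex coefficient of variation was 5.20% for the 18 members at 100 or more per kb and 20.3% for the 18 below that, against 7.61% for all genes. Itga2b varied most, with 36.4%. In Itgad, Itgae and Itga2 the spread of 20.9%, 21.3% and 17.6% was close to the 19.0%, 19.3% and 17.3% that counting alone gives at their depth.

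Around the members, 110 genes of adhesion and of the basement membrane were in the table, and 1 rose and 2 fell in females (3 of 110, against the 1.16% of all genes given above). At an unadjusted p under 0.05 there were 26 of the 110, 7 higher and 19 lower in females (7.84% and 8.16% of all genes). Of 32 basement membrane partners, 1 rose, 1 fell and 30 did not pass, and 11 had an unadjusted p under 0.05 (16.0% of all genes), with a median log2 fold change of -0.047. Nid1, nidogen, which joins laminin to collagen IV by binding the gamma chain Lamc1, had 10199.8, 9519, 9015 and 10655 in female replicates 1 to 4, against 11392, 12800.3, 11839.9 and 12024 in male replicates 1, 3, 4 and 5 (log2 fold change -0.29, SE 0.052, limma adjusted p = 0.028). All female hearts were below all male hearts, and Nid1 fell in females. In limma the Nid1 call was lost when female replicate 2 (adjusted p = 0.0977), male replicate 3 (adjusted p = 0.0670) or male replicate 4 (adjusted p = 0.0813) was left out, and it ended in 5 of 20 alternatives in all. Fbln1, a matrix protein that binds laminin and nidogen, had 10682, 10688, 9973 and 11710.2 in the female hearts, against 9077, 8952, 9768 and 8815 in the male hearts (log2 fold change 0.23, SE 0.048, limma adjusted p = 0.0405), and it rose in females with no overlap. The call of Fbln1 ended without any 1 of 5 hearts: female replicates 1, 2 or 4 and male replicates 1 or 3, with limma adjusted p-values of 0.0754 to 0.124. It also ended with edgeR, with total reads as a covariate and in the 5 hearts with the most reads, and in 11 of 20 alternatives in all. The fibroblast marker sums given with Lamb2 also differed without overlap, and their part in the Fbln1 values was not tested. Col4a3, a chain of collagen IV, had the next smallest p (log2 fold change -0.40, SE 0.10, limma adjusted p = 0.0816). The authors' deposited table gives an adjusted p of 0.0102 for Col4a3. Col4a3 was called by DESeq2, which nearly reproduced that table, and by limma with total reads as a covariate and without female replicate 4. DESeq2 also called the partners Agrn and Frem2 (log2 fold changes -0.10 and 0.44 in limma). Their adjusted p-values in the authors' deposited table were 0.0309 and 0.0136. Limma called Frem2 without male replicate 5 and with the title number block.

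Of 43 intracellular adhesion genes 1 fell and 42 did not pass, and 10 had an unadjusted p under 0.05 (16.0% of all genes), with a median log2 fold change of -0.032. Fermt3, the kindlin of blood cells that activates beta integrins, fell in females by 0.39 on the log2 scale, with 352, 365, 305 and 384 in the female hearts, against 461, 457, 496 and 419 in the male hearts (SE 0.084, limma adjusted p = 0.0498). The groups did not overlap, and the macrophage marker sums differed in the same direction, as given above; their part was not tested. The call lies at the threshold and ended in 7 of the 8 fits without 1 heart, all but that without male replicate 5, with limma adjusted p-values of up to 0.146, and in 14 of 20 alternatives in all. The actin regulator Vasp had a log2 fold change of -0.19 (limma adjusted p = 0.124) and the adaptor Nck2 of -0.25 (limma adjusted p = 0.129). Neither passed in limma, while DESeq2 called both, with adjusted p-values of 0.0485 for Vasp and 0.0361 for Nck2 in the authors' deposited table, and limma without male replicate 5 called Nck2.

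Of 35 other integrin ligands and surface partners, 0 passed in limma and 5 had an unadjusted p under 0.05 (16.0% of all genes), with a median log2 fold change of -0.029. DESeq2 also called 0 of these. Limma without male replicate 5 called Icam2, Spp1, Tgfb1 and Thbs2 (2.88% of all genes were called in that fit). In the 5 hearts with the most reads it called Ctgf, Spp1 and Thbs2 (155 of 17911 genes), and with the title number block Thbs2 (0.810%). The 3 with the smallest p were Tgfb1, Svep1, a ligand of Itga9, and Spp1, osteopontin. Their log2 fold changes were -0.16, -0.21 and 0.68, with limma adjusted p-values of 0.156, 0.203 and 0.216.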

How the data were processed

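RNA of 8 hearts was sequenced and mapped to mm10, per the submitters' processing notes. Aligner, counter, strand setting and test were not given in the sources used here. The authors deposited 1 signal column per heart, read counts divided by 1 size factor, and their own log2 fold change and p-value columns. Each value is a whole multiple of 1 read (100% of values, tolerance 0.001 reads), so reads were recovered. Within each sex the 12 library pairs differed by 8.21 to 18.4 times the sampling noise (chi-square per degree of freedom).

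limma 3.58.1 (R 4.3.3, trend and robust) was fitted to log2(value + 1) of all 17911 genes, female minus male, without covariates; a filter of 1 in 4 or more hearts removed 0 genes. P-values were Benjamini-Hochberg adjusted over all genes, with a threshold of 0.05. Such fold changes understate those of low genes. The fits were tested on simulated data. edgeR 4.0.16 (166 genes called with TMM factors), DESeq2 1.42.0 and limma-voom used the recovered reads. DESeq2 called 690 of 14088 genes, as did the authors' deposited adjusted p-values, with nearly the same fold changes (Itga1 at -0.0836 in each). Calls by DESeq2 and by the deposited table are thus not separate results. Lengths and positions are from GENCODE vM21 (merged exons or coding exons), promoters from RefSeq. Ratios were compared by exact permutation over 70 assignments.

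Members and lists were chosen with earlier results of these data known. Values in every heart are given by rule for members with an unadjusted p under 0.05, without overlap, standing apart by Dixon's test, or among the 5 highest integrin alpha, 3 highest beta and 6 highest laminin genes per kb; the values of Itga8, Lamb3 and marker sums were added after seeing the data. Of the members, 1 is counted but its values are not reported here. Partner genes are those called in the main limma fit plus up to 3 of the smallest p per list, and others are named where an alternative called them. P-values set the difference between the sexes against the spread between these hearts. Alternatives were other tools, pseudocounts of 0.1 and 10, a filter of 50, no filter, and total reads as a covariate. They also took in number blocks, leaving out each heart, and the 5 hearts with the most reads. With no filter the fit is the main fit again, since the filter removed 0 genes.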

Additional observations from a re-analysis of the deposited data

Results flagged for a closer look

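In 5 of the 84 groups of 4 hearts examined, 1 heart stood apart from the other 3 by Dixon's test at the 95% level, and chance flags about 1 group in 20. Lamb2 stood apart in both sexes: male replicate 5, at 31885, was above the other male hearts, and female replicate 1, at 30926, was below the other female hearts. Itga2b in male replicate 5 was 246, above the other male hearts. Itgb6 in female replicate 1 was 1131, below the other female hearts. Lama5 in male replicate 1 was 11808, below the other male hearts.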

How the results depend on the processing

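Of the 36 members, 22 kept the sign of their fold change in all 20 alternatives, and 18 of these 22 moved by over 1.5 times in 1 or more of them (all but Lamb2, Itga9, Itga6 and Lamc3). With total reads as a covariate Itga4 was -0.0026, Itgam -0.037 and Itgb2 -0.19. Without 1 heart Itgal ran from -0.44 to -0.044, Itgam from -0.39 to -0.11, Itgax from -0.55 to -0.14 and Itga2b from -0.55 to -0.12. The count of called members was 0 in limma and 1 with DESeq2 (Lamb2), with total reads as a covariate (Itga2b, log2 fold change -0.70, adjusted p = 0.0454) and without male replicate 5 (Lamb2), so it ran from 0 to 1 without 1 heart. The count of called partner genes was 3 in limma (1.16% of all genes), 1 with edgeR under TMM (0.927%) or RLE factors (0.916%), 8 with DESeq2 (4.90%), 5 in the 5 hearts with the most reads (155 of 17911 genes) and 0 to 10 without 1 heart: 0 without female replicate 2 (77 of 17911 genes) or male replicate 3 (94 of 17911 genes), and 10 without male replicate 5 (2.88%). The cause was not tested.

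Same-numbered hearts did not deviate together in every pair: correlations were 0.166, -0.0463 and -0.108 for title numbers 1, 3 and 4 and 0.166, -0.0463 and 0.124 for library codes 1, 3 and 5, and in 1 and 2 of these 3 pairs the female heart correlated best with its own number. With the replicate block 145 genes (title numbers) or 26 (codes) were called in place of 208, and 0 members. In these fits a heart whose number has no match in the other sex adds nothing to the sex difference. Each block fit thus rests on 3 pairs of hearts. Whether a lost call comes from the block or from the fewer hearts was not tested. Of partner genes the title number block called 4 (Frem2, Nck2, Thbs2 and Tns2; 0.810% of all genes) and the library code number block 0 (0.145%), so neither called Nid1 (adjusted p = 0.188 and 0.330), Fbln1 or Fermt3.

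The other members changed sign in 1 or more settings. In the 5 hearts with the most reads they were -0.19 for Itga10, -0.0056 for Itga11, -0.0073 for Itga2, -0.33 for Itgad, -0.054 for Itgae, -0.0038 for Itgb5 and -0.017 for Lamb1. With total reads as a covariate they were -0.084 for Itga8, 0.036 for Itgal, -0.00083 for Itgav, 0.0075 for Itgax, -0.0010 for Itgb5 and 0.027 for Lama4. With limma-voom they were -0.0094 for Itga10 and -0.0074 for Itgad. For Itga8 the value was -0.039 with edgeR under TMM or RLE factors and -0.041 with DESeq2. With the title number block they were -0.0032 for Itga11, -0.19 for Itgae, -0.0065 for Itgb5, -0.0034 for Itgb7 and -0.020 for Lamb1, and with the library code number block -0.16 for Itga8 and 0.0055 for Lama4. Without 1 heart the ranges were Itga10 from -0.066 to 0.094, Itga11 from -0.049 to 0.084, Itga2 from -0.0024 to 0.25, Itga8 from -0.17 to 0.22, Itgad from -0.076 to 0.15, Itgae from -0.14 to 0.18, Itgav from -0.020 to 0.051, Itgb5 from -0.0082 to 0.010, Lama3 from -0.0060 to 0.080, Lama4 from -0.044 to 0.029, Lamb1 from -0.026 to 0.032 and the log2 ratio of Lama5 to Lama4 from -0.078 to 0.031. Depth limits Itgad, Itgae and Itga2, which had as few as 18, 13 and 25 reads in a heart.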
